A study of Mus musculus with 18 samples.

Results

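The aminoacyl-tRNA synthetases are the enzymes that join each amino acid to its transfer RNA, and 36 of their genes were followed here through ribosome footprints and RNA of mouse epidermis. The genes were taken by symbol from a table of 20655 rows of coding-sequence counts, and all 36 were found. A symbol without a final 2 put a gene in the cytosolic class (20 genes) and a symbol with a final 2 in the mitochondrial class (16 genes), so no measured value set the class. The list of genes was drawn up with earlier results of these data known. Footprints and RNA came from enriched epidermal basal cells of embryos at E18.5. Short hairpin RNA had been delivered into the epidermis in utero at E9.5. The conditions were HrasG12V shEif2b5 (strain FR-HrasG12V, with a hairpin against Eif2b5), HrasG12V shScram (the same strain, with a scrambled hairpin) and WT shScram (the Gt(ROSA)26Sortm4 strain of Luo/J, a reporter strain with ACTB-tdTomato and EGFP, with the scrambled hairpin). Each had 3 footprint and 3 RNA libraries, 18 in all. All groups had received a hairpin, and all cells were isolated in the presence of cycloheximide (CHX), which arrests ribosomes on mRNA. There was no WT group with shEif2b5, and strain and Hras genotype cannot be told apart. The genotype label of WT shScram footprint library 1 reads Rosa26, and the library was kept with WT by its title.

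Cytosolic synthetases serve the ribosomes that translate nuclear mRNAs, and the mitochondrial ones, also encoded in the nucleus, serve the ribosomes inside mitochondria. Several cytosolic enzymes are held together in the multisynthetase complex with the scaffold proteins Aimp1, Aimp2 and Eef1e1, and in mammals Kars and Gars give rise to both the cytosolic and the mitochondrial enzyme. When the exchange factor eIF2B, whose catalytic subunit is encoded by Eif2b5, is limiting, general initiation falls while the transcription factor ATF4 is made, and many cytosolic synthetase genes are known ATF4 targets.

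Footprint libraries held 3319175 to 4933298 coding-sequence counts and RNA libraries between 1771365 and 5505386, the shallowest being library 2 of HrasG12V shScram. Footprint library 1 of HrasG12V shEif2b5 differed from libraries 2 and 3 of its group by a chi-square per degree of freedom of 21.7 and 22.4, against 6.08 between those other libraries. The 3 HrasG12V shScram RNA libraries differed from each other by 12.5 to 15.6. The 8 basal keratinocyte markers were all read in each group. They summed to 14100 to 16200 CPM (counts scaled to a common library size) in HrasG12V shEif2b5 footprints, 10600 to 15000 in HrasG12V shScram and 9240 to 13600 in WT shScram. The 6 spinous keratinocyte markers, which mark cells that have left the basal layer, summed to 22900 to 69600 CPM in HrasG12V shEif2b5 footprints, 31000 to 38100 in HrasG12V shScram and 21900 to 43400 in WT shScram. The spinous sum was larger than the basal sum in every group, in footprints and in RNA. The basal footprint sums of HrasG12V shEif2b5 and WT shScram did not overlap. The part of these markers in the results below was not tested, and in such bulk samples fewer cells of a type and less RNA per cell cannot be told apart. Eif2b5 itself had 82.7, 78.5 and 95.4 CPM of footprints in HrasG12V shEif2b5, against 91.9, 93.1 and 102 in HrasG12V shScram and 102, 106 and 102 in WT shScram. HrasG12V shEif2b5 and HrasG12V shScram differed by -0.16 on the log2 scale (95% interval -0.41 to 0.08, edgeR adjusted p 0.994). Its RNA was 134, 128 and 143 CPM in HrasG12V shEif2b5, against 127, 388 and 145 in HrasG12V shScram and 158, 179 and 159 in WT shScram. HrasG12V shScram RNA library 2 stood far above all other libraries there. The groups with either hairpin otherwise overlapped in RNA (log2 -0.68, 95% interval -1.52 to 0.17, edgeR adjusted p 0.257), so a lower Eif2b5 level in the shEif2b5 group did not pass the test in either kind of library. Hras did not pass its test in any comparison between conditions. Whether the 3 libraries of each kind and condition stem from different animals is not labelled, so the p-values cover the spread among libraries, which may be technical.

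The promoter sequences were read first, since they do not depend on the counts. RefSeq promoter windows (GRCm38.p6, 250 bases before to 50 bases after the start site) were used for 26 of the 36 genes, 12 cytosolic and 14 mitochondrial. They were searched on both strands for TGATGNAA, the core of the composite element that ATF4 binds with C/EBP partners. The motif was in the windows of 4 of 12 cytosolic genes (33.3%) and of 0 of 14 mitochondrial genes, against 4.51% of all 27025 genes with a window and 2.62% of the 8754 genes tested in footprints that had one. The 4 genes were Gars, Iars, Tars and Yars. They are shown in 30-base stretches, 5′ to 3′ on the strand of the gene, with the match in capitals. In the first 3 the capitals are the reverse complement of the motif, and in Yars the motif itself.
Gars (chr6:55037960-55037989, plus strand): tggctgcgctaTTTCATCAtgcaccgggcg
Iars (chr13:49682126-49682155, plus strand): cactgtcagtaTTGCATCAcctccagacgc
Tars (chr15:11399655-11399684, minus strand): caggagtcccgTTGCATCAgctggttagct
Yars (chr4:129189895-129189924, plus strand): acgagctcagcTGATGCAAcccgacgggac
The Iars and Tars windows share TTGCATCA, Yars has its reverse complement TGATGCAA, and Gars reads TTTCATCA. A match of letters is a description and does not show that a factor is bound.

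Cytosolic synthetase genes carried far more footprints than mitochondrial ones, both in sum and per length of coding sequence. The 20 cytosolic genes summed to 3939, 3965 and 4484 CPM of footprints in the HrasG12V shEif2b5 libraries, to 3562, 3615 and 3726 in HrasG12V shScram, and to 3015, 3831 and 3332 in WT shScram. The 16 mitochondrial genes summed to 499, 369 and 458 CPM, to 407, 455 and 491, and to 429, 453 and 422 CPM in the same conditions. The 3 HrasG12V shEif2b5 libraries all lay above the 3 HrasG12V shScram libraries and the 3 WT libraries in the cytosolic sum, while the mitochondrial sums of the 3 conditions overlapped. The ratio of the cytosolic to the mitochondrial sum was 9.47 ± 1.43 in HrasG12V shEif2b5, 8.10 ± 0.591 in HrasG12V shScram and 7.79 ± 0.726 in WT shScram (SD, n = 3 each), and its libraries overlapped between the conditions. In RNA the ratio was 5.52 ± 0.342, 5.38 ± 0.361 and 5.59 ± 0.474 in the same order.

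**Figure D1:**
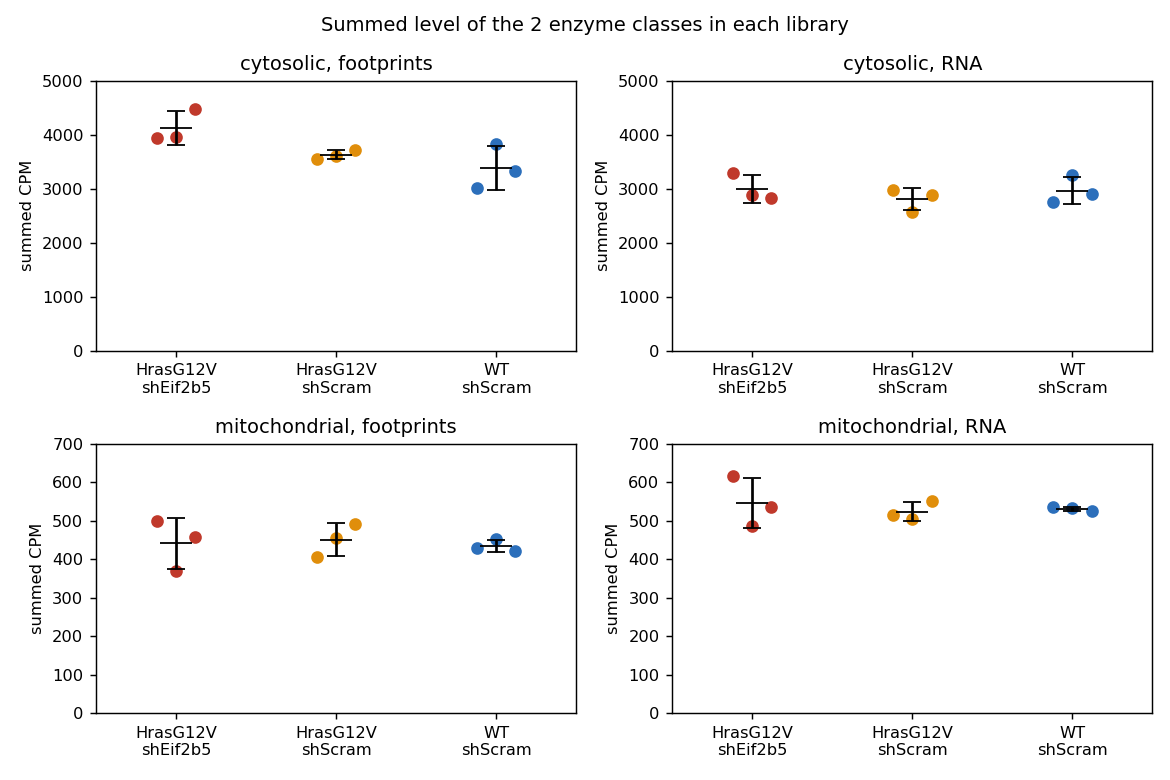
Summed CPM (vertical axis) of the 20 cytosolic genes (top) and the 16 mitochondrial genes (bottom) in footprints (left) and RNA (right); points are libraries and bars the mean ± SD of 3. The HrasG12V shEif2b5 footprint libraries lie between 3939 and 4484 for the cytosolic genes, above the other 6 libraries, while the other panels overlap.

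Per length of coding sequence (CPM per kilobase of the longest annotated coding sequence, the unit RPKM), the cytosolic genes sat at a median percentile of 82.4 among 11399 genes in HrasG12V shEif2b5 footprints, 79.4 in HrasG12V shScram and 79.5 in WT. The mitochondrial genes sat at 34.95, 35.9 and 36.2. Nars, the asparagine enzyme, had the highest mean of the 36 over all 9 libraries, with 192, 189 and 230 RPKM of footprints in HrasG12V shEif2b5, 195, 183 and 191 in HrasG12V shScram and 117, 168 and 154 in WT shScram. Every HrasG12V library, with either hairpin, was above every WT library. Dars, the aspartate enzyme, had 161, 131 and 156 RPKM, 167, 169 and 142 RPKM, and 145, 143 and 160 RPKM, and its 3 conditions overlapped. In WT shScram Dars had the higher mean (149, against 146 RPKM for Nars), with overlap. At the low end of the class, Vars (valine) had 51.6, 45.2 and 44.6 RPKM in HrasG12V shEif2b5, 29.8, 36.8 and 40.4 in HrasG12V shScram and 29.3, 43.7 and 38.9 in WT shScram. The HrasG12V shEif2b5 libraries were the highest of the 9. Cars (cysteine) was lowest with 33.5, 34.9 and 43.1 RPKM, 31.5, 28.2 and 33.2 RPKM, and 20.5, 39.8 and 21.3 RPKM in the same order. WT library 2 stood well above the other WT libraries there.

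Of the mitochondrial genes, Iars2 (isoleucine) had 46.1, 30.5 and 45.1 RPKM of footprints in HrasG12V shEif2b5, 35.2, 43.4 and 46.6 in HrasG12V shScram and 35.7, 39.4 and 38.0 in WT shScram. Rars2 (arginine) had 34.3, 29.6 and 32.8 RPKM, 27.9, 30.9 and 32.1 RPKM, and 34.7, 29.7 and 24.7 RPKM. Both led their class and overlapped between all conditions. Aars2 (alanine) had 4.99, 2.73 and 3.93 RPKM in HrasG12V shEif2b5, 2.58, 4.09 and 5.41 in HrasG12V shScram and 3.04, 4.78 and 4.51 in WT shScram. Vars2 (valine) had 4.68, 2.74 and 4.06 RPKM, 3.51, 4.04 and 4.86 RPKM, and 3.51, 4.63 and 3.94 RPKM. These 2 were the lowest and also overlapped. In the order of all 36, neighbours overlapped in their libraries for 30 of 35 adjacent pairs in HrasG12V shEif2b5 footprints, 24 in HrasG12V shScram and 32 in WT, so only the coarse order is resolved.

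**Figure D2:**
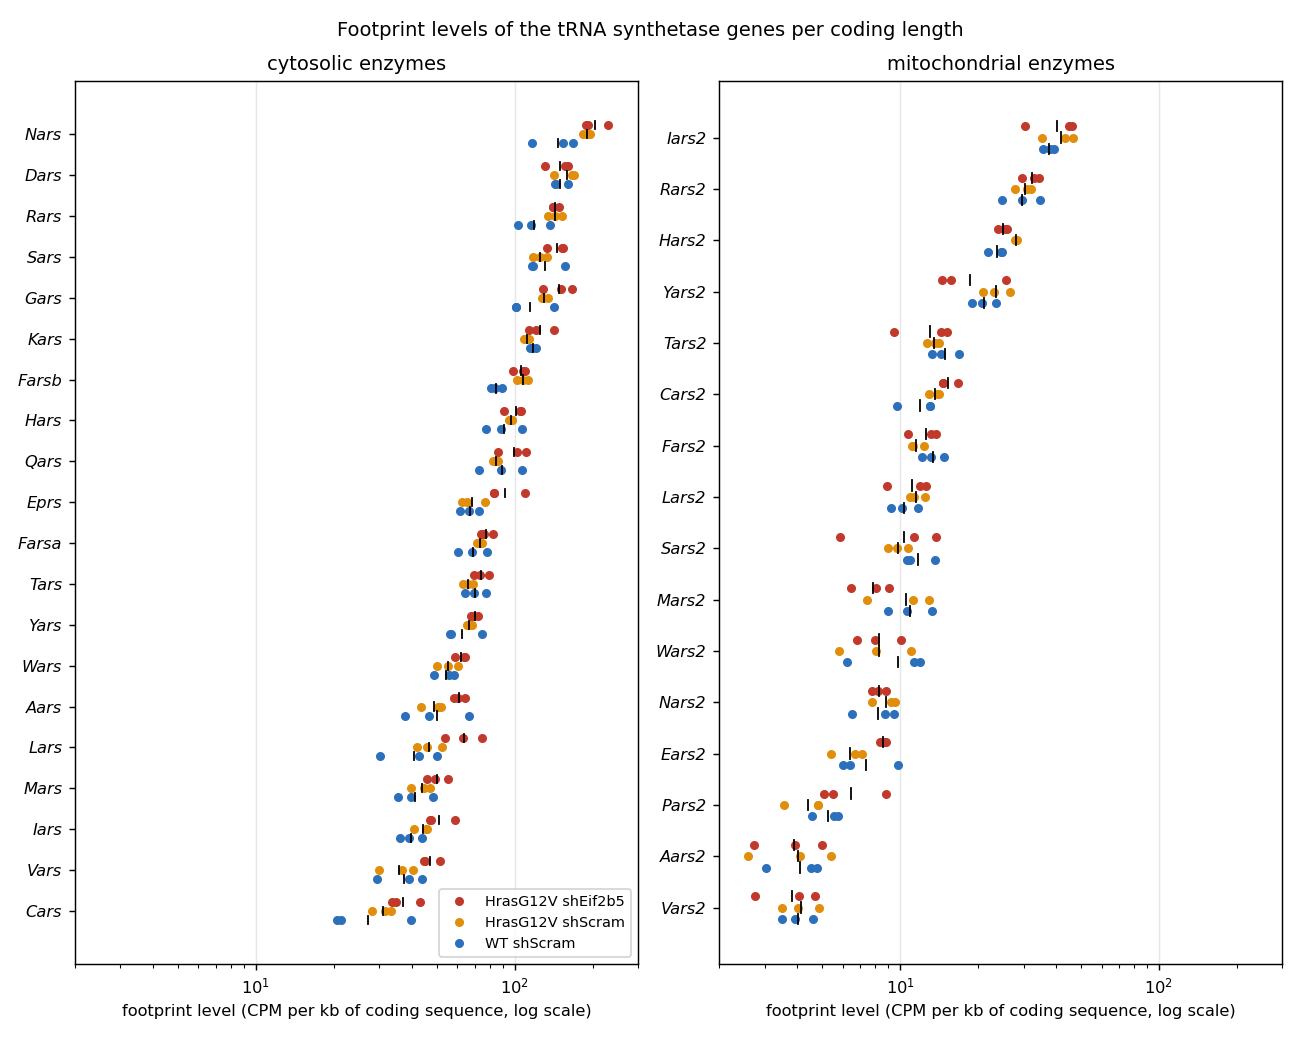
Footprint level of each gene in CPM per kilobase of coding sequence (horizontal log axis), cytosolic genes on the left and mitochondrial genes on the right, sorted by the mean of 9 libraries; points are libraries coloured by condition and ticks are means of 3. Cytosolic means over the 9 libraries run from 31.8 (Cars) to 180 (Nars) and mitochondrial means from 4 (Vars2) to 40 (Iars2).

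A cytosolic and a mitochondrial gene whose symbols differ by the final 2 alone made 13 pairs, which leaves out Fars2, Ears2 and Pars2. The cytosolic gene had the higher footprint level per length in all 3 libraries for 13 of 13 pairs in HrasG12V shEif2b5, 12 in HrasG12V shScram and 13 in WT shScram. The ratio of the means was widest for asparagine, with Nars at 24.6 times Nars2 in HrasG12V shEif2b5, 21.4 in HrasG12V shScram and 17.8 in WT. It was narrowest for isoleucine, with Iars at 1.26, 1.06 and 1.05 times Iars2 (library ratios 1.02 to 1.55, 0.980 to 1.15 and 1.01 to 1.12). In RNA the isoleucine ratio was 0.979, 1.01 and 0.982. The isoleucine pair was near equal in both kinds of library.

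The 8 genes whose enzymes sit in the multisynthetase complex (Eprs, which carries both the glutamate and the proline activity, with Iars, Lars, Mars, Qars, Rars, Kars and Dars) spread over 2.98-fold per length in HrasG12V shEif2b5 footprints, from Mars at 50 to Dars at 149 RPKM. The spread was 3.64-fold in HrasG12V shScram and 3.76-fold in WT shScram. The other 12 cytosolic genes spread over 5.48-fold, 6.12-fold and 5.38-fold, from Cars to Nars in each condition. In RNA the 8 spread over 3.53-fold, 3.59-fold and 3.41-fold and the 12 over 5.55-fold, 4.97-fold and 4.51-fold. Such a spread tends to widen with the number of genes, so the 2 sets are not compared like for like. Farsa and Farsb encode the 2 subunits of a single phenylalanine enzyme. Their footprint ratio, Farsa over Farsb, was 0.681, 0.768 and 0.751 in HrasG12V shEif2b5, 0.667, 0.651 and 0.732 in HrasG12V shScram, and 0.741, 0.767 and 0.937 in WT shScram. Farsa was lower than Farsb in all 9 footprint libraries. In RNA the same ratio ran from 0.678 to 1.35 and lay on both sides of 1.

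Against HrasG12V shScram, HrasG12V shEif2b5 footprints held more cytosolic synthetase reads as values, but no gene passed the test. Of the 20 cytosolic genes 18 had a positive log2 difference, with a median of 0.18 (range -0.09 to 0.45), against a median of 0.00 over all 11448 genes tested. Of the 16 mitochondrial genes 6 were positive, with a median of -0.04 (range -0.41 to 0.55). The test (edgeR quasi-likelihood, Benjamini-Hochberg adjustment over all genes) called 0 of 36, where 0% of all genes were called; at an unadjusted p under 0.05 there were 3 of 36 and 519 of all genes, and DESeq2 called 0 of 36. The groups did not overlap for 12 genes higher (9 cytosolic, 3 mitochondrial) and 1 lower (Hars2), where 5.5% of all genes were separated upward and 5.59% downward. Without HrasG12V shEif2b5 footprint library 1, which stood apart from its group, the cytosolic median was 0.21 with 17 of 20 positive, and 0 of 36 were called beside 31 of all genes.

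Eprs had 377, 378 and 499 CPM of footprints in HrasG12V shEif2b5, against 283, 298 and 349 in HrasG12V shScram. The 3 HrasG12V shEif2b5 libraries were all higher, by 1.35-fold (log2 0.43, SE 0.13, edgeR adjusted p 0.994, unadjusted p 0.00436). Vars had 198, 173 and 171 CPM, against 114, 141 and 155 CPM, and was also without overlap (1.32-fold, log2 0.40, SE 0.15, unadjusted p 0.0131). Among mitochondrial genes, Ears2, which charges glutamate, had 13.9, 13.2 and 13.6 CPM, against 8.47, 11.2 and 10.5 CPM (1.35-fold, log2 0.43, SE 0.23). Pars2, the proline enzyme, had 8.45, 7.81 and 13.6 CPM, against 7.36, 5.46 and 7.40 CPM (1.46-fold, log2 0.55, SE 0.27). Both were separated between the conditions, with 1 Pars2 library well above the rest.

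Between HrasG12V shScram and WT shScram, footprints of the synthetases differed little with all libraries in the fit. The cytosolic median was 0.09 (14 of 20 positive) and the mitochondrial median -0.01 (8 of 16 positive), with -0.01 over all genes. With a library left out, the cytosolic median ran from -0.01 to 0.21 and the mitochondrial median from -0.14 to 0.14. edgeR called 0 of 36, where 1.7% of all genes were called, and DESeq2 called 0 of 36. At an unadjusted p under 0.05 there were 3 of 36, beside 1632 of all 11448 genes. The groups did not overlap for 3 genes higher and 1 lower, where 10.4% of all genes were separated upward and 9.89% downward. Farsb had 190, 199 and 180 CPM in HrasG12V shScram, against 144, 158 and 148 in WT shScram (1.27-fold, log2 0.34, SE 0.11, edgeR adjusted p 0.153). Nars had 326, 306 and 321 CPM, against 196, 282 and 258 CPM (1.29-fold, log2 0.37, SE 0.13, adjusted p 0.2). For both genes the libraries of the conditions did not overlap. Hars2, the histidine enzyme, was likewise separated, with 41.9, 42.6 and 43.0 CPM, against 33.2, 37.4 and 37.3 CPM (log2 0.24, SE 0.13). Fars2, the mitochondrial phenylalanine enzyme, had 15.2, 15 and 16.8 CPM, against 17.8, 16.5 and 20 CPM, with overlap (log2 -0.21, SE 0.19).

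Set against WT shScram, HrasG12V shEif2b5 footprints gave a cytosolic median of 0.28 (19 of 20 positive, range -0.00 to 0.64) and a mitochondrial median of -0.03 (8 of 16 positive), with -0.01 over all genes. This comparison shares its libraries with both of the others, and the medians are given side by side only. edgeR called 0 of 36, where 0.97% of all genes were called. There were 10 of 36 at an unadjusted p under 0.05, 9 of them cytosolic, beside 1648 of all 11448 genes. DESeq2 called 2 (Lars and Nars), beside 229 of all genes. The groups did not overlap for 9 genes higher (8 cytosolic, 1 mitochondrial) and 0 lower, against 8.32% and 7.75% of all genes. Lars, the leucine enzyme, had 190, 224 and 264 CPM in HrasG12V shEif2b5, 148, 162 and 184 in HrasG12V shScram and 107, 177 and 150 in WT shScram. Every HrasG12V shEif2b5 library was above every library of the other conditions. The fold against WT was 1.56 (log2 0.64, SE 0.17, edgeR adjusted p 0.0791), and the adjusted p was 0.0205 by DESeq2, 0.0249 without HrasG12V shEif2b5 footprint library 1 and 0.0415 without WT footprint library 2. Over all fits with a library left out, the edgeR adjusted p for Lars ran from 0.0249 to 0.319. The log2 difference then ran from 0.46 to 0.81. Nars had 323, 317 and 386 CPM, against 196, 282 and 258 CPM in WT (1.39-fold, log2 0.48, SE 0.13, edgeR adjusted p 0.101, DESeq2 adjusted p 0.0476). Mars2, the methionine enzyme, had 15.9, 11.4 and 14.2 CPM, against 18.7, 23.4 and 15.8 CPM, with overlap (log2 -0.48, SE 0.23). Cars2 had 27.8, 24.3 and 24.2 CPM, against 16.2, 21.8 and 21.5 CPM, without overlap (log2 0.36, SE 0.17).

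**Figure D3:**
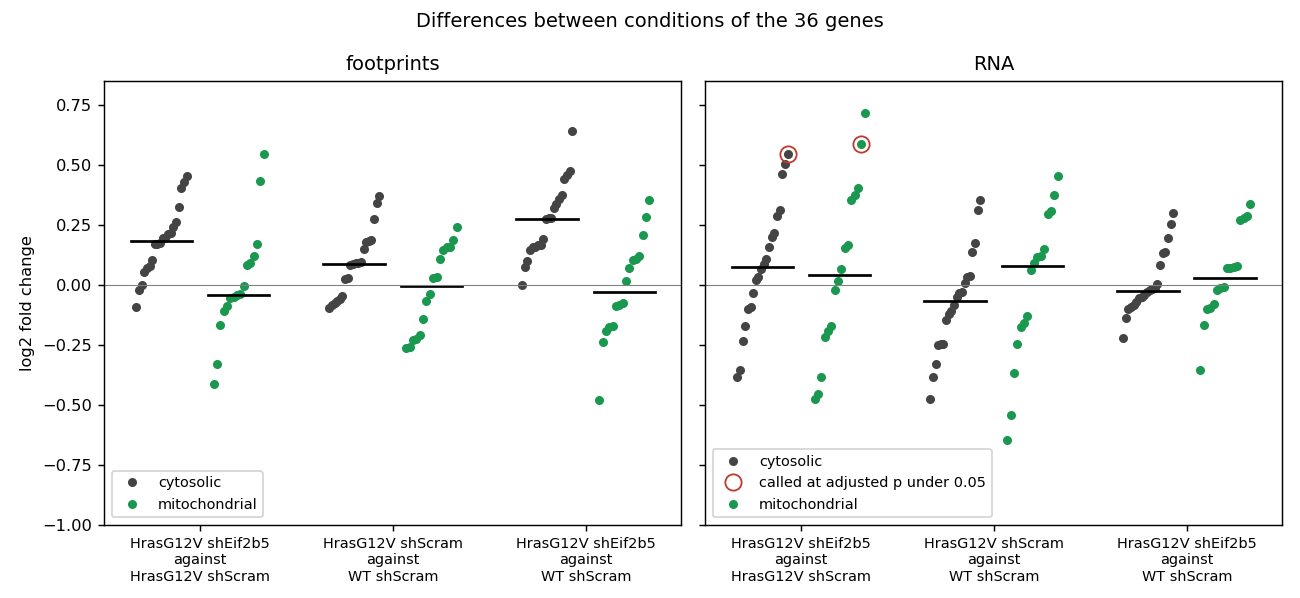
Log2 fold change (vertical axis) of the 36 genes in footprints (left) and RNA (right) for the 3 comparisons, cytosolic genes in grey and mitochondrial genes in green; points are genes sorted within their class, black bars class medians and red rings called genes. The cytosolic footprint medians are 0.18, 0.09 and 0.28 from left to right, and 2 genes, Sars and Vars2, are ringed in RNA.

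In RNA, 2 of the 36 genes (5.56%) passed the test between HrasG12V shEif2b5 and HrasG12V shScram, both higher, where 13% of all 11096 genes were called and 5.23% were called higher. The upward share among the synthetases was near that of all genes. Sars, the cytosolic serine enzyme (GRCm38 chromosome 3, 108424865 to 108445209, minus strand), had 235, 206 and 221 CPM of RNA in HrasG12V shEif2b5, 153, 157 and 144 in HrasG12V shScram and 167, 201 and 169 in WT shScram. The HrasG12V shEif2b5 libraries lay above all others, and the rise over HrasG12V shScram was 1.46-fold (log2 0.55, SE 0.14, edgeR adjusted p 0.0169). Vars2 had 72.2, 53.2 and 63.4 CPM, 45.1, 41.6 and 38.9 CPM, and 52.6, 49.3 and 47.7 CPM in the same order (chromosome 17, 35655634 to 35667592, minus strand). It too was highest in every HrasG12V shEif2b5 library, 1.5-fold over HrasG12V shScram (log2 0.59, SE 0.16, edgeR adjusted p 0.0265). Neither call held without HrasG12V shScram RNA libraries 1 and 3 together (adjusted p 0.327 for Sars and 0.358 for Vars2, with the lone library assumed to vary like the other groups), and both were lost when any of HrasG12V shEif2b5 RNA library 1 or 3 or HrasG12V shScram RNA library 1 or 3 was left out (0.0574 to 0.115). The log2 differences then ran from 0.51 to 0.56 for Sars and from 0.48 to 0.65 for Vars2. With offsets for coding GC content and length the Vars2 difference was 0.19 (adjusted p 0.483). In the same RNA libraries the 8 basal keratinocyte markers summed to 14800 to 16700 CPM in HrasG12V shEif2b5, against 9360 to 13000 in HrasG12V shScram, and 5 melanocyte markers to 427 to 550 CPM, against 555 to 692 CPM. Both sums were without overlap, none of these markers was at 0 in all libraries of a group, and their part in the Sars and Vars2 differences was not tested.

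Footprints of these 2 genes were 214, 244 and 246 CPM for Sars in HrasG12V shEif2b5, against 190, 215 and 202 CPM in HrasG12V shScram. For Vars2 they were 14.9, 8.70 and 12.9 CPM, against 11.1, 12.8 and 15.5 CPM. Both overlapped, and neither was called. Cars had 91.4, 74.5 and 99.1 CPM of RNA, against 72.9, 56.1 and 56.3 CPM in HrasG12V shScram (1.42-fold, log2 0.50, SE 0.18, edgeR adjusted p 0.0752). Pars2 had 11.5, 12.8 and 13.6 CPM, against 6.11, 7.22 and 9.5 CPM (1.65-fold, log2 0.72, SE 0.27, adjusted p 0.0786). Both were separated. In all, 7 of the 36 were separated upward and 1 downward, where 13.4% and 15.2% of all genes were.

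Of the other RNA comparisons, HrasG12V shScram against WT shScram gave cytosolic and mitochondrial medians of -0.07 and 0.08. They were -0.24 and -0.12 without HrasG12V shScram RNA libraries 1 and 3. With all libraries 0 of 36 were called, where 7.7% of all genes were called. At an unadjusted p under 0.05 there were 6 of 36, beside 2809 of all 11096 genes, and DESeq2 called 0 of 36. HrasG12V shEif2b5 against WT shScram gave medians of -0.02 and 0.03, and 0 of 36 called, where 0.324% of all genes were called. The unadjusted p was under 0.05 there for 1 of 36, beside 812 of all genes, and DESeq2 called 0 of 36. The groups did not overlap for 1 gene higher and 8 lower in HrasG12V shScram, where 13.7% and 12.4% of all genes were separated in these directions. They did not overlap for 2 higher and 1 lower in HrasG12V shEif2b5, where 7.68% and 8.34% were. Aars, the alanine enzyme, had 123, 87.2 and 122 CPM of RNA in HrasG12V shScram, against 132, 188 and 145 in WT shScram (log2 -0.47, SE 0.18, edgeR adjusted p 0.107). Hars2 had 18.7, 28.3 and 34.8 CPM, against 37.6, 38.1 and 42.1 CPM (log2 -0.54, SE 0.21, adjusted p 0.11). Hars had 115, 114 and 107 CPM, against 123, 158 and 156 CPM (log2 -0.38, SE 0.15, adjusted p 0.117), and Pars2 had 6.11, 7.22 and 9.5 CPM, against 11.3, 13.2 and 11.6 CPM (-0.65, SE 0.26, adjusted p 0.129). All 4 were lower in every HrasG12V shScram library, and Hars2 footprints lay the other way, higher in every HrasG12V shScram library than in WT, as given above. In these RNA libraries the basal keratinocyte markers summed to 9360 to 13000 CPM in HrasG12V shScram, against 14000 to 18500 in WT shScram. The spinous markers summed to 34000 to 62600 CPM, against 64900 to 97900, and the melanocyte markers to 555 to 692, against 356 to 530. These sums did not overlap, and their part in the differences was not tested. Hars and Hars2 overlap at their 5′ ends in the annotation, on opposite strands, but share 0 coding bases, and the strand setting of the counts is not given in the sources used here. Between HrasG12V shEif2b5 and WT shScram, the smallest p-values were those of Sars (log2 0.30, SE 0.14, edgeR adjusted p 0.636) and Farsa (-0.22, SE 0.14, 0.816) among cytosolic genes and of Vars2 (0.34, SE 0.16, 0.684) and Fars2 (-0.35, SE 0.24, 0.828) among mitochondrial ones. Farsa RNA was 67, 69.5 and 78 CPM, against 87.8, 82.8 and 79.6 CPM, without overlap, and Fars2 RNA was 19.2, 14.2 and 12.7 CPM, against 22.7, 16.3 and 20.3 CPM, with overlap.

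Translation efficiency, the footprint difference relative to the RNA difference in a fit of all 18 libraries, was called for 0 of 36 genes in each comparison. HrasG12V shEif2b5 against HrasG12V shScram had 1.86% of all 11990 genes called, HrasG12V shScram against WT shScram 1%, and HrasG12V shEif2b5 against WT shScram 0%. At an unadjusted p under 0.05 there were 4, 4 and 5 of the 36, beside 2141, 1762 and 666 of all 11990 genes. DESeq2 called 0 of the 36 in each. Cytosolic medians were 0.11, 0.16 and 0.24 and mitochondrial medians -0.15, 0.04 and 0.00, with 0.03, -0.02 and 0.00 over all genes. Without HrasG12V shScram RNA library 1 the mitochondrial median of -0.15 became 0.03 (9 of 16 positive), and without libraries 1 and 3 of that group the cytosolic median of 0.16 became 0.32. For Hars2 the difference between HrasG12V shScram and WT was 0.79 (95% interval 0.29 to 1.28, edgeR adjusted p 0.105) and for Nars 0.62 (0.16 to 1.09, adjusted p 0.186). Lars differed by 0.66 between HrasG12V shEif2b5 and WT (0.20 to 1.11, adjusted p 0.822), and Vars2 by -0.70 between HrasG12V shEif2b5 and HrasG12V shScram (-1.25 to -0.15, adjusted p 0.162). The others with the smallest p-values were Eprs (0.46, edgeR adjusted p 0.25), Iars (0.44, 0.199) and Hars2 (-0.55, 0.226) between the HrasG12V conditions. Between HrasG12V shScram and WT shScram they were Hars (0.48, 0.247) and Wars2 (-0.62, 0.596), and between HrasG12V shEif2b5 and WT shScram Eprs (0.54, 0.865), Mars2 (-0.56, 0.874) and Yars2 (-0.45, 0.875). The median SE was 0.21 for cytosolic genes against 0.29 for the less deeply read mitochondrial genes in the comparison of the HrasG12V conditions.

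The 4 cytosolic genes with a match to the motif TGATGNAA in their window were not called in any comparison between conditions. In HrasG12V shEif2b5 footprints their median difference from HrasG12V shScram was 0.18 (0.07 to 0.21), against 0.18 (-0.09 to 0.43) for the 8 cytosolic genes whose window lacked it. Between HrasG12V shEif2b5 and WT the medians were 0.26 and 0.16, and between HrasG12V shScram and WT 0.12 and 0.06. In RNA the medians with and without the motif were -0.03 and -0.01 between the HrasG12V conditions. They were -0.05 and -0.02 between HrasG12V shEif2b5 and WT, and -0.01 and -0.0003 between HrasG12V shScram and WT. The 2 sets overlapped in each.

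Footprints against RNA within a condition set the individual enzymes apart more than any comparison between conditions. In HrasG12V shEif2b5, 13 of 20 cytosolic genes were called higher in footprints and 2 lower, while 1 of 16 mitochondrial genes was higher and 8 lower. In HrasG12V shScram the cytosolic counts were 11 and 2 and the mitochondrial counts 2 and 6. In WT shScram they were 8 and 2, and 1 and 5. Such calls were common. Of all genes 33.6% were called higher and 34.5% lower in HrasG12V shEif2b5 (68.1% in all), 30.1% and 32.9% in HrasG12V shScram (63%), and 33% and 34.1% in WT shScram (67.2%), so the number called is no result about the synthetases. In HrasG12V shScram and WT shScram the mitochondrial counts called lower were near the shares of all genes called lower. The cytosolic count called higher in WT shScram was also not far from the share of all genes. The direction by class is described by the medians. The cytosolic medians were 0.53, 0.42 and 0.14 and the mitochondrial medians -0.44, -0.21 and -0.23, with -0.01, -0.04 and -0.01 over all genes. These differences are relative to the scaling of each library kind. Without WT footprint library 2 the cytosolic median in WT was 0.0009.

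Rars, the arginine enzyme, had 293, 280 and 279 CPM of footprints in HrasG12V shEif2b5, against 100, 90.1 and 82.7 CPM of RNA. Its footprints were 3.11-fold higher there (log2 1.64, SE 0.14), 2.44-fold in HrasG12V shScram and 2.5-fold in WT shScram. Dars was 2.83-fold, 2.32-fold and 2.78-fold higher and Wars, the tryptophan enzyme, 2.5-fold, 2.33-fold and 2.11-fold. Farsb and Nars were also called higher in all 3 conditions. In the other direction, Vars2 had 14.9, 8.70 and 12.9 CPM of footprints in HrasG12V shEif2b5, against 72.2, 53.2 and 63.4 CPM of RNA (log2 -2.36, SE 0.19), and the difference was -1.67 in HrasG12V shScram and -1.95 in WT. Aars2 was also low, at -1.40, -0.95 and -1.04. Of the cytosolic genes, Vars (-0.85, -0.96 and -1.04) and Qars, the glutamine enzyme (-0.30, -0.52 and -0.47), were the 2 called lower in each condition. Rars2 was called higher in all 3 conditions (0.69, 0.43 and 0.55), alone in its class in that.

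Vars2, Aars2 and Vars, each among the 4 lowest of the 36 in footprints relative to RNA in every condition, had GC-rich coding sequences. The coding sequences of Sars2 (GC content 61.1%) and Ears2 (59.4%) were GC-rich as well. Coding GC content was 43.6% to 60.1% in cytosolic genes (median 52.0%) and 44.3% to 61.1% in mitochondrial genes (median 55.5%), with Vars at 60.1%, Vars2 at 60.2% and Aars2 at 60.9%, and with Dars at 43.6%, Rars2 at 44.3% and Rars at 46.3%. Over the 36 genes, which share libraries, Spearman's rho between coding GC and log2 footprints over RNA was -0.79 in HrasG12V shEif2b5, -0.66 in HrasG12V shScram and -0.75 in WT shScram, against -0.55, -0.45 and -0.52 over 11939 genes. With offsets for coding GC and length fitted across both library kinds, the mitochondrial medians were -0.06, -0.10 and -0.05 and the cytosolic medians 0.69, 0.57 and 0.43. The genes called lower were then 0, 1 and 0 of 20 cytosolic and 1, 2 and 1 of 16 mitochondrial. Those called higher were 15, 16 and 12 cytosolic and 2, 2 and 1 mitochondrial. Of all 11990 genes 3291, 2927 and 3089 were called lower and 3431, 3156 and 3335 higher (56.1%, 50.7% and 53.6% in either direction). This alternative was chosen after the data had been seen.

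**Figure D4:**
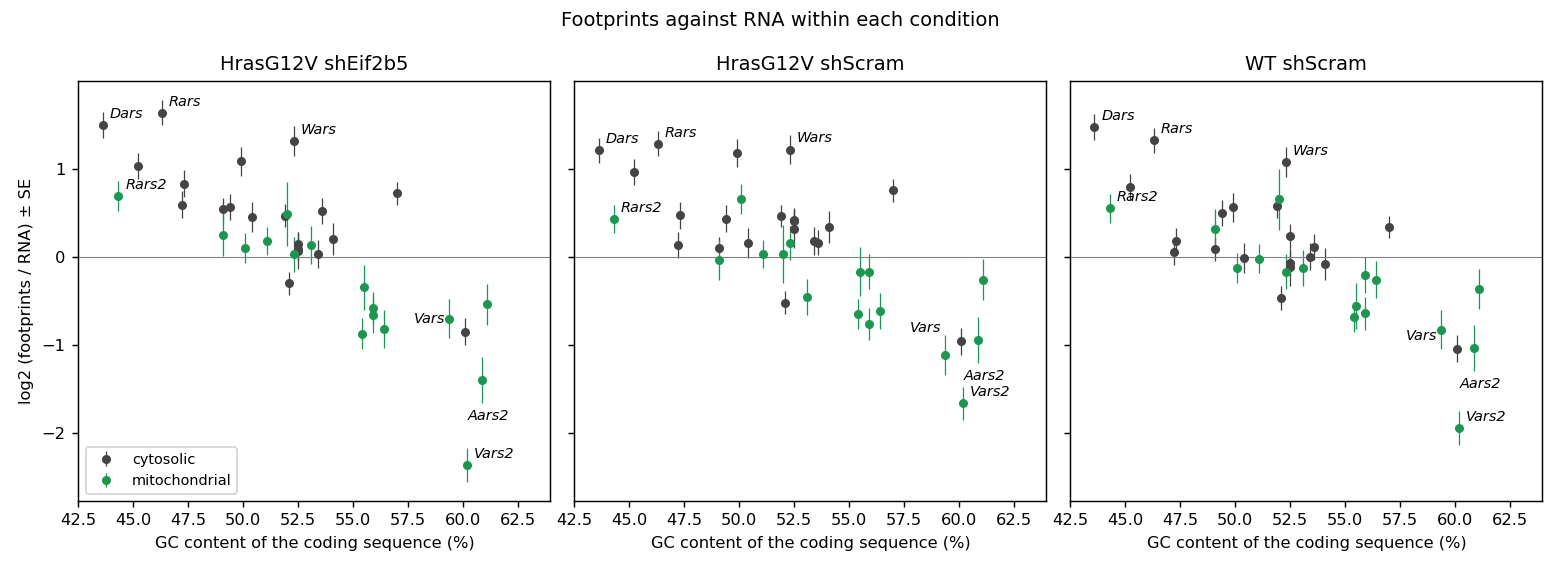
Log2 of footprints over RNA with its SE (vertical axis) against the GC content of the coding sequence in percent (horizontal axis) for the 36 genes in each condition, cytosolic in grey and mitochondrial in green. Rars, Dars and Wars stand at the top and Vars2, Aars2 and Vars low and to the right in every panel, and Rars2 stands with the GC-poor genes.

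Of 16 partners of tRNA charging, which include the complex scaffolds, the tRNA exporter Xpot and mitochondrial amidation and formylation factors, 0 were called in any of the 9 comparisons between conditions by edgeR or by DESeq2. From 0 to 3 of the 16 had an unadjusted p under 0.05 in a comparison, beside 519 to 3387 of all genes tested. The smallest adjusted p-values in footprints against WT were those of Sepsecs, which makes selenocysteinyl-tRNA, with HrasG12V shEif2b5 (log2 -0.65, SE 0.18, edgeR adjusted p 0.1), and of Pstk, the kinase before it in that route, with HrasG12V shScram (log2 -0.68, SE 0.23, edgeR adjusted p 0.172). The scaffolds Aimp1, Aimp2 and Eef1e1 were called higher in footprints than in RNA within every condition. Aimp2 was at 3.46-fold in HrasG12V shEif2b5, 2.71-fold in HrasG12V shScram and 3.39-fold in WT. Of the 16 partners 6, 7 and 7 were called higher within these conditions and 4, 3 and 2 lower. Of all genes 33.6%, 30.1% and 33% were called higher and 34.5%, 32.9% and 34.1% lower. Of 16 genes of the ATF4 pathway, 15 were tested in footprints and in RNA. Footprints of Atf4 itself were 45.3, 63.6 and 44.9 CPM in HrasG12V shEif2b5, 49.3, 51.9 and 41.9 in HrasG12V shScram and 16.2, 17.9 and 32.8 in WT shScram. Every HrasG12V library, with either hairpin, was above every WT library. Atf4 was called higher than in WT in both HrasG12V conditions (2.29-fold with shEif2b5, edgeR adjusted p 0.0257; 2.13-fold with shScram, 0.0272). Psat1, a serine synthesis enzyme, was called in the same 2 comparisons (1.45-fold, adjusted p 0.0494, and 1.47-fold, 0.0272). Neither was called in footprints between the HrasG12V conditions.

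In RNA, Trib3, a pseudokinase and ATF4 target, was called higher in HrasG12V shEif2b5 than in HrasG12V shScram (24.8, 23.8 and 23.5 CPM, against 13.7, 13.3 and 9.71 CPM; 1.98-fold, edgeR adjusted p 0.0175). The amino acid transporter genes Slc7a5 (1.52-fold, edgeR adjusted p 0.027) and Slc7a11 (3.11-fold, edgeR adjusted p 0.0498) were called higher in HrasG12V shScram than in WT shScram. In HrasG12V shEif2b5, Slc7a5 RNA was 314, 264 and 349 CPM, also above every WT library (185, 232 and 174 CPM). Against WT it was called there by DESeq2, while edgeR called 0 of the 15 genes tested. In footprints of HrasG12V shEif2b5 against WT, DESeq2 called Slc3a2 besides Atf4 and Psat1. Slc7a11 RNA was 19.7, 18.3 and 16.2 CPM in HrasG12V shScram, against 1.62, 14.0 and 3.07 in WT, with WT library 2 near the HrasG12V level. It was 14.1, 12.8 and 11.3 CPM in HrasG12V shEif2b5, which overlapped with WT. By edgeR, the synthetase genes themselves were not called in any of these comparisons with WT.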

How the data were processed

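The authors deposited a table of raw counts of reads in coding sequences, one row a symbol, made per the submitters' processing notes with Bowtie, TopHat2 and HTSeq on mm10; versions and strand setting are not given in the sources used here. All 18 columns were used. Libraries of 1 group differed by a chi-square per degree of freedom of 3.52 to 22.4, so none was a copy. Genes past filterByExpr (minimum count 10, total 15) were tested with edgeR 4.0.16 in R 4.3.3 (TMM within each library kind, robust quasi-likelihood, Benjamini-Hochberg over all genes, called under 0.05): 11448 genes in footprints, 11096 in RNA, 11990 over both. The 9 libraries of a kind entered 1 fit, and all 18 entered the fit for translation efficiency. The test was tried on simulated counts. Coding lengths and GC came from GENCODE M21 (GRCm38), with 19771 symbols matched directly and 627 by synonym. Intervals are 95%.

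Described with a value per library were called genes, the 2 highest and lowest per class, and otherwise up to 2 per class with the smallest p in a comparison. The members and lists were chosen with earlier results of these data known. Alternatives were other scaling, filters, DESeq2 1.42.0, GC and length offsets, the replicate block and leaving out libraries. Protein sequences were not used here, and 1 promoter window is not reported here.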

Additional observations from a re-analysis of the deposited data

How the results depend on the processing

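Between conditions, the count of the 36 genes called was 0 under every alternative run for footprints of HrasG12V shEif2b5 against HrasG12V shScram, footprints and RNA of HrasG12V shScram against WT shScram, RNA of HrasG12V shEif2b5 against WT shScram, and the 3 comparisons of translation efficiency. Footprints of HrasG12V shEif2b5 against WT shScram gave 0 in the edgeR fit, 2 with DESeq2, 1 with no filter and 1 with the replicate block. Of all genes 111, 229, 216 and 184 were called in these fits, in the same order. With a library left out this comparison gave 0 to 2. There was 1 without HrasG12V shEif2b5 library 1, beside 316 of all genes, and 2 without WT library 2, beside 49. RNA of HrasG12V shEif2b5 against HrasG12V shScram gave 2, but 1 with GC and length offsets, 1 with only the 2 conditions in the fit (Vars2 then at adjusted p 0.0574), 0 without HrasG12V shScram libraries 1 and 3 together, and 0 to 4 with a library left out (0 without HrasG12V shEif2b5 library 1 or 3 or HrasG12V shScram library 1 or 3; 4, of which 2 were lower, without HrasG12V shScram library 2). Over all genes that comparison gave 1444 calls, 17 without HrasG12V shScram libraries 1 and 3, and 3150 without library 2. The causes were not tested. No named gene that was called changed sign.

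The cytosolic median footprint difference of HrasG12V shEif2b5 against HrasG12V shScram ran from 0.11 to 0.21 with a library left out, and against WT shScram from 0.16 to 0.34. For HrasG12V shScram against WT shScram it ran from -0.01 to 0.21. The mitochondrial median of the first was 0.12 without HrasG12V shEif2b5 footprint library 2, where all libraries gave -0.04. Without HrasG12V shScram RNA libraries 1 and 3 the cytosolic RNA median was 0.26 against HrasG12V shScram and -0.24 for HrasG12V shScram against WT, where the mitochondrial median was -0.12. Within conditions, counts called were 18 to 24 (HrasG12V shEif2b5), 16 to 22 (HrasG12V shScram) and 14 to 17 (WT shScram). The edgeR fit with all libraries called 8161, 7551 and 8052 of all 11990 genes in the same order. These counts are therefore no result about the synthetases.

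The replicate numbers do not pair libraries by the labels, and same-numbered libraries of different conditions correlated over 0.1 in 1 of 9 footprint and 2 of 9 RNA pairs. Footprint and RNA libraries of 1 condition with the same number had correlations of 0.026 to 0.263, and 17 of 18 correlated best with their own number, a hint from the data. With the replicate block 24, 22 and 16 synthetase genes were called within the conditions, beside 8356, 7773 and 8212 of all 11990 genes. Such calls were thus common among all genes. With the block, Lars was called in footprints of HrasG12V shEif2b5 against WT (adjusted p 0.0151), beside 184 of all 11448 genes. The mitochondrial genes, with fewer counts, had larger median standard errors in each comparison between conditions.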
